A study of Mus musculus with 4 samples.

Results

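Genes of glycolysis, gluconeogenesis and the citric acid cycle were examined in the gastric corpus of mice given metformin or vehicle. The members were 41 named genes in 3 pathways, and each was matched by symbol to probe sets that the platform annotation pairs with exactly 1 gene. Of these, 38 were measured among 22180 genes in all. They were 16 of 19 genes of glucose transport and glycolysis, 7 of 7 genes of gluconeogenesis and 15 of 15 genes of the citric acid cycle and the pyruvate dehydrogenase complex. Gpi1, Aldoa and Eno1 were not analysed here. A gene with more than 1 probe set was represented by its brightest on average.

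Total RNA came from the corpus of adult mice aged 8 to 10 weeks after 14 days of daily intraperitoneal injection. Wild-type (WT) mice of strain C57BL/6 received metformin at 300 mg/kg or saline. AMPK KO mice carried Atp4b-cre with Prkaa1fl/fl and Prkaa2fl/fl, which targets the genes of both catalytic AMPK subunits in the parietal cells where the Atp4b promoter is active. AMPK is the kinase that senses low cellular energy. These mice received the same treatments. The labels name no Cre or floxed allele for the WT groups, and littermate controls were used only where possible. Because the KO line mixed B6 with FVB through its Cre parent, genotype and strain cannot be told apart. The 4 groups had 1 array apiece, and how many animals each array stands for is not stated in the labels. Differences between 2 arrays therefore have no replicate check and no p-value. They are given as differences of log2 values, where 1 is a 2-fold difference.

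Glycolysis splits glucose into pyruvate in the cytosol and yields some ATP on the way. Pyruvate is then reduced to lactate, or carried into mitochondria, where the pyruvate dehydrogenase complex turns it into acetyl-CoA for the citric acid cycle. Gluconeogenesis runs the path back to glucose with its own enzymes at the steps that glycolysis cannot reverse, chiefly in liver and kidney. Parietal cells of the corpus are packed with mitochondria, whose ATP drives the proton pump, and metformin is known in liver for lowering glucose output.

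As a check of the labels, the targeted gene Prkaa1 had log2 values of 9.46 and 8.90 on the WT arrays with vehicle and metformin, and of 8.18 and 8.66 on the KO arrays likewise. Prkaa2 had 8.90, 8.02, 7.19 and 7.52 in that order. Both were lower on the KO array than on the WT array of the same treatment, with differences of -1.28 and -1.71 under vehicle. Under metformin the differences were -0.24 and -0.50, smaller than those of metformin against vehicle in WT (-0.55 and -0.88). The check is therefore weak. The 12 parietal cell markers were all above the expression filter (a mean over the 4 arrays of at least 5.03, the median of all genes). The vehicle arrays lay furthest apart, with a correlation over genes of 0.905, against 0.95 to 0.971 for every other pair. Medians over the 11090 genes past the filter were highest for WT vehicle (6.76) and lowest for AMPK KO vehicle (6.50). The metformin arrays had 6.61 and 6.65. Of these genes, 46.2% were highest on the WT vehicle array and 44.3% lowest on the AMPK KO vehicle array. Results that rest on both vehicle arrays are set below beside the metformin comparison of the genotypes, which uses neither. The WT response, also given, uses the WT vehicle array. The 4 comparisons are built from 4 arrays, so those that share an array are not separate evidence.

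Of the 38 measured members, 34 passed the filter. The exceptions were the lactate exporter Slc16a3 (4.74 to 5.04), the phosphoenolpyruvate carboxykinase of the cytosol Pck1 (3.81 to 4.24), the glucose-6-phosphatase gene G6pc (3.67 to 4.16) and the fructose bisphosphatase Fbp1 (3.44 to 3.54). These 4 are given by level and were left out of the counts of differences. No background level was set, so a low value is not read as absence.

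**Figure D1:**
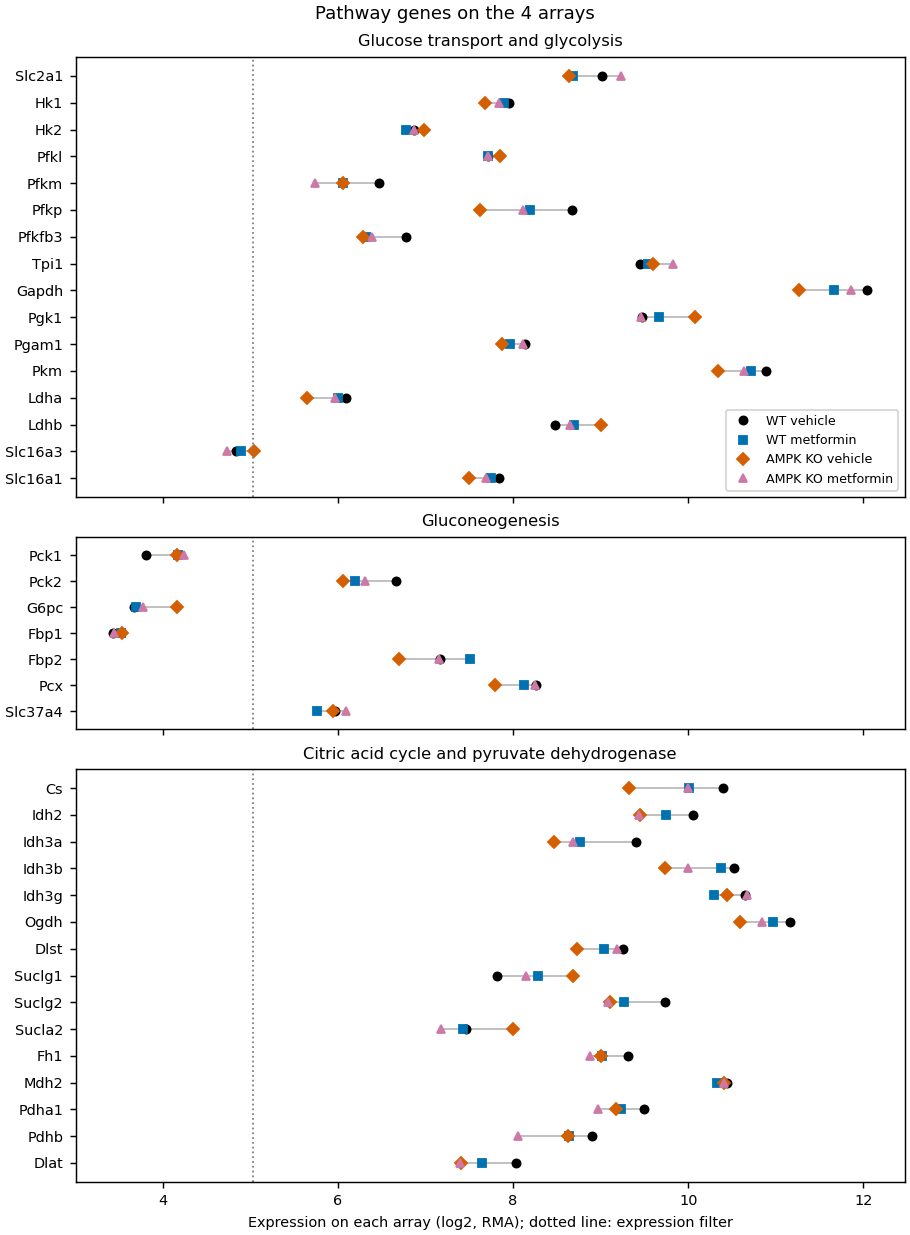
Expression of the 38 measured members on each of the 4 arrays, on the log2 scale of the deposited values, by pathway. Symbols mark the arrays, grey bars join the lowest and highest value of a gene, and the dotted line is the filter at 5.03. Slc16a3, Pck1, G6pc and Fbp1 have means to its left, and Cs and Pfkp have wide ranges with the AMPK KO vehicle array lowest.

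The first comparison set the KO corpus against the WT corpus, both given vehicle. Most enzymes of the citric acid cycle were lower on the KO array, led by citrate synthase, while the succinyl-CoA ligase subunits Suclg1 and Sucla2 were higher and its subunit Suclg2 lower. The 15 genes had a median difference (AMPK KO minus WT) of -0.53, against -0.22 over all genes past the filter. The glycolysis genes had a median of -0.31 and the gluconeogenesis genes one of -0.01. Among the 34 members with a mean over the limit, 2 were at least 2-fold lower, where 8.12% of all genes were, and 0 were at least 2-fold higher, where 2.31% were. With 1.5-fold as the limit, 9 were lower and 2 higher, beside 24.4% and 7.44% of all genes. The share of lower members was thus near that of all genes.

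Citrate synthase (Cs), which joins acetyl-CoA to oxaloacetate at the entry of the cycle, had 10.40 in WT with vehicle, 10.01 in WT with metformin, 9.32 in KO with vehicle and 10.00 in KO with metformin. It was lowest on the KO vehicle array and nearly the same on both metformin arrays. Its difference between the genotypes was -1.08 under vehicle (2.11-fold lower) and -0.01 under metformin. After cyclic loess, a scaling that removes trends on intensity between arrays, the vehicle difference was -0.85 and under 2-fold, and it was -1.23 with each array centred on its median. With the trend on gene span removed it was at -1.04 among genes past the filter and at -0.98 over all protein-coding genes.

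The NAD-dependent isocitrate dehydrogenase has 3 subunits, and they differed by unequal amounts. The catalytic subunit Idh3a had 9.40, 8.76, 8.47 and 8.69, in the same order of arrays, which is kept wherever values are listed without names. It was highest on the WT vehicle array, with the other arrays close together. Idh3b had 10.52, 10.38, 9.74 and 10.00, so both KO arrays lay under both WT arrays. Idh3g had 10.65, 10.30, 10.44 and 10.67 and showed no such order. The vehicle differences were -0.93, -0.78 and -0.20. Idh2, the NADP-dependent isocitrate dehydrogenase of mitochondria, had 10.06, 9.75, 9.45 and 9.44, again with both KO arrays lowest and a vehicle difference of -0.61.

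The succinyl-CoA ligase, which makes ATP or GTP directly in the cycle, showed opposite differences among its subunits. Suclg1 encodes the α subunit common to both forms of the enzyme. It had 7.82, 8.28, 8.68 and 8.15 and was highest on the KO vehicle array. Sucla2, the β subunit of the ATP-forming enzyme, had 7.46, 7.43, 8.00 and 7.18, also highest there. Suclg2, the β subunit of the GTP-forming enzyme, had 9.73, 9.27, 9.11 and 9.09 and was highest on the WT vehicle array. The vehicle differences were 0.86, 0.54 and -0.62. After cyclic loess Suclg1 reached 1.12 and was then past 2-fold, and Sucla2 was at 0.79. A further probe set of Suclg2, at a mean of 4.64, gave -1.13.

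The oxoglutarate dehydrogenase subunits Ogdh and Dlst had vehicle differences of -0.57 and -0.53. Dlst had 9.26, 9.04, 8.73 and 9.19 and was lowest on the KO vehicle array. Fumarase (Fh1) and the pyruvate dehydrogenase subunits Pdha1 and Pdhb lay between -0.31 and -0.27, close to the median of all genes, and Dlat, the acetyltransferase of that complex, was at -0.62. Malate dehydrogenase (Mdh2), which closes the cycle, had 10.44, 10.33, 10.41 and 10.41 and was level over the 4 arrays. Below the median of all genes past the filter were 11 of the 15 in the deposited values, 11 after centring and 8 after cyclic loess, where the median of the 15 was -0.28 against -0.07 over all genes. The size of the cycle's difference thus depended on the scaling.

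Promoter sequences are shown from RefSeq (GRCm38.p6) for Cs and Pfkp, the members past 2-fold under vehicle, and for the ligase subunits Suclg1 and Sucla2, which differed in the opposite direction on the same arrays. Each runs 5′ to 3′ on the strand of the gene, from 250 bases before to 50 after the annotated start, and capitals mark matches to the motifs given with the promoter counts at the end. Cs lies at chr10:128337477-128337776 on the plus strand and Pfkp at chr13:6648722-6649021 on the minus strand. Suclg1 lies at chr6:73248255-73248554 and Sucla2 at chr14:73552536-73552835, both on the plus strand. The last 2 were chosen after their values were seen.
Cs: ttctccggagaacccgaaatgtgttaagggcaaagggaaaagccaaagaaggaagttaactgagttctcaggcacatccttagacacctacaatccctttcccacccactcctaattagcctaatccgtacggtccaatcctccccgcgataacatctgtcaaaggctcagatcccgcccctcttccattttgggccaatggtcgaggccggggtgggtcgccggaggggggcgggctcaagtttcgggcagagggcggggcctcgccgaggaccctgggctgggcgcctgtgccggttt
Pfkp: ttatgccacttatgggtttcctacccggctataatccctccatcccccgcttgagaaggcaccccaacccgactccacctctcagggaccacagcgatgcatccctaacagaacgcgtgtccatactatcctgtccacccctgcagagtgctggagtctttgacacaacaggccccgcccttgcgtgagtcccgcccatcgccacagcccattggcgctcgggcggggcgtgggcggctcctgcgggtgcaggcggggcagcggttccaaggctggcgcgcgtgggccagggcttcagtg
Suclg1: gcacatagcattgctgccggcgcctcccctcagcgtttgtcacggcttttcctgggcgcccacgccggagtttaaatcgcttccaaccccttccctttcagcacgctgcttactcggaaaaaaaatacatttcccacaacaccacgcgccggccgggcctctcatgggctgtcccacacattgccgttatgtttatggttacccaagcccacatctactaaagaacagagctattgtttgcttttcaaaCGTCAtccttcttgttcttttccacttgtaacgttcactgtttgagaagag
Sucla2: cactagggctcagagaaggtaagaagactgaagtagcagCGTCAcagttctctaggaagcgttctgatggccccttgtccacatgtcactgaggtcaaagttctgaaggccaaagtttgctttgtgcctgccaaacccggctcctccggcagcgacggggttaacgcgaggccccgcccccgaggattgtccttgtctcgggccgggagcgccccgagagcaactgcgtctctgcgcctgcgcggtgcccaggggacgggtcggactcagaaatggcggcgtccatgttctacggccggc
Suclg1 and Sucla2 each hold 1 match, to the cAMP response motif on the opposite strand. The match begins 1 base before the start in Suclg1, so it runs across the start, and 211 bases before it in Sucla2. The windows of Cs and Pfkp hold none of the motifs searched.

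In glycolysis, the isoforms of phosphofructokinase, which commits sugar to the pathway, were not alike. Pfkp, the platelet-type isoform, had 8.67, 8.20, 7.62 and 8.12, with the KO vehicle array lowest. The liver-type isoform Pfkl had 7.72, 7.72, 7.85 and 7.71, level on all arrays. The muscle-type isoform Pfkm had 6.47, 6.06, 6.06 and 5.74, highest on the WT vehicle array. The vehicle differences were -1.05 for Pfkp (2.07-fold lower), 0.13 for Pfkl and -0.41 for Pfkm. Pfkp was at -0.79 after cyclic loess and at -0.93 or -0.86 with the trend on gene span removed among genes past the filter or over all, each under 2-fold. Pfkfb3, which makes the sugar bisphosphate that activates phosphofructokinase, had 6.78, 6.32, 6.29 and 6.39, highest on the WT vehicle array, and a difference of -0.50.

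The neighbouring enzymes Gapdh and Pgk1 lay on opposite sides of 0. Gapdh, which oxidises glyceraldehyde phosphate and is often used as a reference gene, had 12.04, 11.67, 11.26 and 11.86 and was lowest on the KO vehicle array, with a difference of -0.79. With the trend on gene span removed it was at -1.02 where the trend was fitted among genes past the filter, and at -0.93, under 2-fold, where it was fitted over all protein-coding genes. Its further probe sets gave -0.82 and -1.17. Another 8 probe sets are annotated to Gapdh together with pseudogenes or predicted genes and were not used, so signal from near-identical copies may enter its values. Pgk1, the kinase of the next step, had 9.47, 9.67, 10.08 and 9.46 and was highest on the KO vehicle array, with 0.61.

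Lactate dehydrogenase showed the same split. Ldha, the subunit common in muscle, had 6.09, 6.00, 5.65 and 5.97, with the KO vehicle array lowest. Ldhb, the subunit common in heart, had 8.48, 8.70, 9.01 and 8.65, with that array highest. Their vehicle differences were -0.44 and 0.53. Pyruvate kinase (Pkm) had -0.55, the glucose transporter Slc2a1 -0.39, the monocarboxylate transporter Slc16a1 -0.35, hexokinase Hk1 -0.28 and the mutase Pgam1 -0.27. Hk2 at 0.13 and the isomerase Tpi1 at 0.15 were slightly higher. Tpi1 had 9.45, 9.54, 9.60 and 9.83. In this comparison the signs of Hk2, Pfkl and Tpi1 turned with cyclic loess or centring, as did those of Fbp1, Slc37a4 and Mdh2.

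Of the 7 gluconeogenesis genes, Pcx, Pck2, Fbp2 and Slc37a4 passed the filter. Pyruvate carboxylase (Pcx), which makes oxaloacetate, had 8.26, 8.13, 7.79 and 8.25. The mitochondrial carboxykinase Pck2 had 6.66, 6.20, 6.06 and 6.31, and Fbp2, the muscle-type fructose bisphosphatase, had 7.17, 7.51, 6.70 and 7.16. Each of these was lowest on the KO vehicle array, with differences of -0.47, -0.60 and -0.46. Slc37a4, the glucose-6-phosphate transporter of the endoplasmic reticulum, had 5.97, 5.76, 5.95 and 6.09 and was level between the vehicle arrays. The median of -0.01 over all 7 joins these 4 genes with Pck1, G6pc and Fbp1, which lie under the filter and had differences of 0.35, 0.49 and 0.10. Pck1 had 3.81, 4.18, 4.16 and 4.24, and G6pc had 3.67, 3.70, 4.16 and 3.78. Over the 4 alone the median was -0.47.

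**Figure D2:**
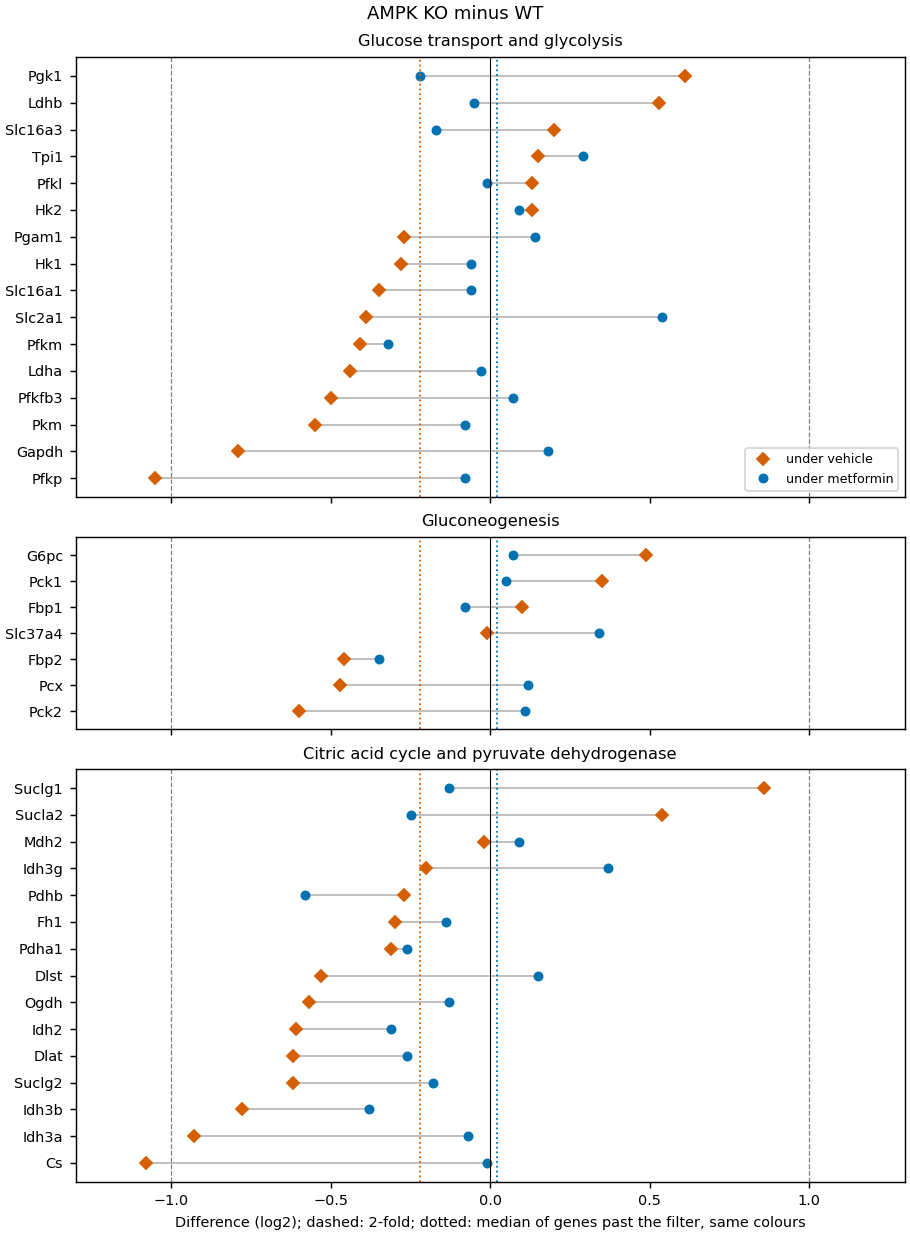
Differences of log2 values, AMPK KO minus WT, for each member under vehicle (orange) and under metformin (blue), with 1 array in each group. Dashed lines mark 2-fold and dotted lines the medians of genes past the filter (-0.22 and 0.02). Cs and Pfkp pass the lower 2-fold line under vehicle, Suclg1, Pgk1, Sucla2 and Ldhb lie at the right, and under metformin the range narrows to -0.58 to 0.54.

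Several cell type lists differed on the same arrays, and their part in the results was not tested. In a bulk sample, fewer cells of a type and less RNA per cell cannot be told apart. Of 12 parietal cell markers, 11 were lower on the KO vehicle array than on the WT one, with a median of -0.33. Below the median of -0.22 over all genes past the filter were 8 of the 12. The mean level over the list was 10.62, 10.31, 10.18 and 10.39. Smooth muscle markers had a median of -1.08, 4 of 7 were at least 2-fold lower, and the list's mean levels were 10.62, 10.77, 9.72 and 10.42. Mast cell markers had a median of 1.07 over 6 genes, with 4 above 0 and 2 below, Kit at -1.61 and Mcpt4 at -0.50. Their mean levels were 5.46, 5.39, 6.61 and 6.84. Plasma cell markers had a median of 0.39 over 5 genes and were uneven. Ighm was at 3.75 and Jchain at 3.07, but Pou2af1 at 0.39, Mzb1 at 0.36 and Derl3 at -0.49. The list's mean levels were 5.46, 5.56, 6.88 and 6.47. Genes of small nucleolar RNAs (59 past the filter) were higher by a median of 1.13. Their median was also 1.13 for metformin against vehicle in WT, which shares the WT vehicle array. For KO against WT under metformin it was -0.39. With the trend on gene span removed among all protein-coding genes, the medians were -0.38 for the citric acid cycle and -0.13 for gluconeogenesis. Of 7 hepatocyte markers, 3 passed the filter (Apoa1, Ttr and Apob) while Alb had 4.46 to 5.30, and of 6 adipocyte markers measured, 2 passed it (Fabp4 and Cidec) while Adipoq had 3.65 to 3.87.

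Position among the 4 arrays differed by pathway. On the WT vehicle array 23 of the 34 members past the filter were highest, where 46.2% of all genes were, and 12 of these belonged to the citric acid cycle. On the AMPK KO vehicle array 17 were lowest, where 44.3% of all genes were, with 9 of 15 in glycolysis, 3 of 4 in gluconeogenesis and 5 of 15 in the cycle. Another 7 cycle genes were lowest on the AMPK KO metformin array.

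Under metformin the genotypes were closer, with 0 of 34 members past 2-fold or 1.5-fold in either direction. Of all genes, 0.532% were at least 2-fold higher in KO and 0.388% lower, and 3.11% and 2.67% passed 1.5-fold. The medians (AMPK KO minus WT) over measured members were -0.14 for the cycle, -0.04 for glycolysis and 0.07 for gluconeogenesis. Over the 4 gluconeogenesis genes past the filter it was 0.12. All genes past the filter had a median of 0.02. Of the 15 cycle genes, 12 were under that value, and 12 were so under both other scalings too. This comparison uses neither vehicle array.

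The lowest was Pdhb, the β subunit of the decarboxylase of the pyruvate dehydrogenase complex, with 8.90, 8.64, 8.63 and 8.06. It was level on the first 3 arrays to within 0.27 and lowest on the AMPK KO metformin array, with a genotype difference of -0.58. Its partners Pdha1 (9.49, 9.23, 9.18 and 8.97) and Dlat (8.03, 7.65, 7.41 and 7.39) both had -0.26. The next lowest were Idh3b (-0.38), Fbp2 (-0.35), Pfkm (-0.32) and Idh2 (-0.31). The highest were Slc2a1, the basal glucose transporter, with 9.02, 8.69, 8.64 and 9.23 and a difference of 0.54, Idh3g (0.37), Slc37a4 (0.34), Tpi1 (0.29) and Gapdh (0.18). A further probe set of Slc2a1, with a mean of 4.24, gave 0.27 here but 0.44 under vehicle, opposite in sign to the value above. On the same comparison the squamous epithelium markers had a median of 3.41, the mast cell markers one of 2.03 and the mucous neck cell markers one of 0.80. Parietal cell markers had a median of 0.07, with 8 of 12 above 0. Of the mast cell markers, Kit (-0.31) and Mcpt4 (-0.37) were lower. Plasma cell markers had a median of 0.04, with Jchain at 2.89 and Ighm at 2.06 but Mzb1 at 0.04, Pou2af1 at -0.21 and Derl3 at -0.23. Their part in these values was not tested.

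The series names metformin targets of the mature parietal cell as its question for the WT arrays, which were set against each other next. Members of the citric acid cycle were mostly lower by small amounts, with 14 of 15 below 0. They had a median of -0.26, against a median of -0.14 over all genes past the filter. Below that median were 12 of the 15 under each of the 3 scalings. Glycolysis had a median of -0.09 and gluconeogenesis one of 0.03, or -0.17 over its 4 genes past the filter. Past 2-fold were 0 of 34 members, beside 0.775% of all genes higher and 0.929% lower. Past 1.5-fold was 1, Idh3a at -0.64, beside 9.06% of all genes lower and 3.57% higher. Parietal cell markers had a median of -0.23, with 11 of 12 below 0 and 9 of 12 below the median of all genes. Genes of small nucleolar RNAs were higher by a median of 1.13, as between the genotypes under vehicle. Both comparisons use the WT vehicle array, and the part of these lists in the members' values was not tested.

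After Idh3a, the lowest were Pfkp (-0.47), Pck2 (-0.46), Suclg2 (-0.46) and Pfkfb3 (-0.46). The highest were Suclg1 (0.46), Pck1 (0.37, under the filter), Fbp2 (0.35), Ldhb (0.21) and Pgk1 (0.20). Cs was at -0.39, Gapdh at -0.37 and Slc2a1 at -0.33.

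The last comparison, metformin against vehicle in AMPK KO, was made by the submitters for targets outside the mature parietal cell, since they report a loss of such cells in these mice. In these data the parietal cell markers had a median difference (AMPK KO minus WT) of -0.33 under vehicle and 0.07 under metformin. All genes past the filter had -0.22 and 0.02. Cs, Gapdh and Slc2a1 were higher with metformin, and Sucla2 and Pgk1 lower, each by at least 1.5-fold. The medians were 0.17 for glycolysis, 0.14 for gluconeogenesis and -0.01 for the cycle, against 0.11 over all genes past the filter. Over the 4 gluconeogenesis genes past the filter it was 0.36. Past 2-fold were 0 of 34, beside 2.44% of all genes higher and 0.613% lower. Past 1.5-fold were 3 higher and 2 lower, beside 12.4% and 3.72% of all genes. Cs had 0.68, Gapdh 0.60 and Slc2a1 0.60, though the further probe set of Slc2a1 gave -0.17. They were followed by Pfkp (0.50), Dlst (0.46), Pcx (0.46) and Fbp2 (0.46). The lowest were Sucla2 (-0.83), Pgk1 (-0.62), Pdhb (-0.57), Suclg1 (-0.53) and G6pc (-0.38, under the filter). This comparison and that of the genotypes under vehicle share the KO vehicle array, so a gene that is low there is lower in one and higher in the other. Mucous neck cell markers had a median of 0.96, smooth muscle markers 0.69 and squamous epithelium markers 3.12 on the same arrays, and their part in the members' values was not tested.

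**Figure D3:**
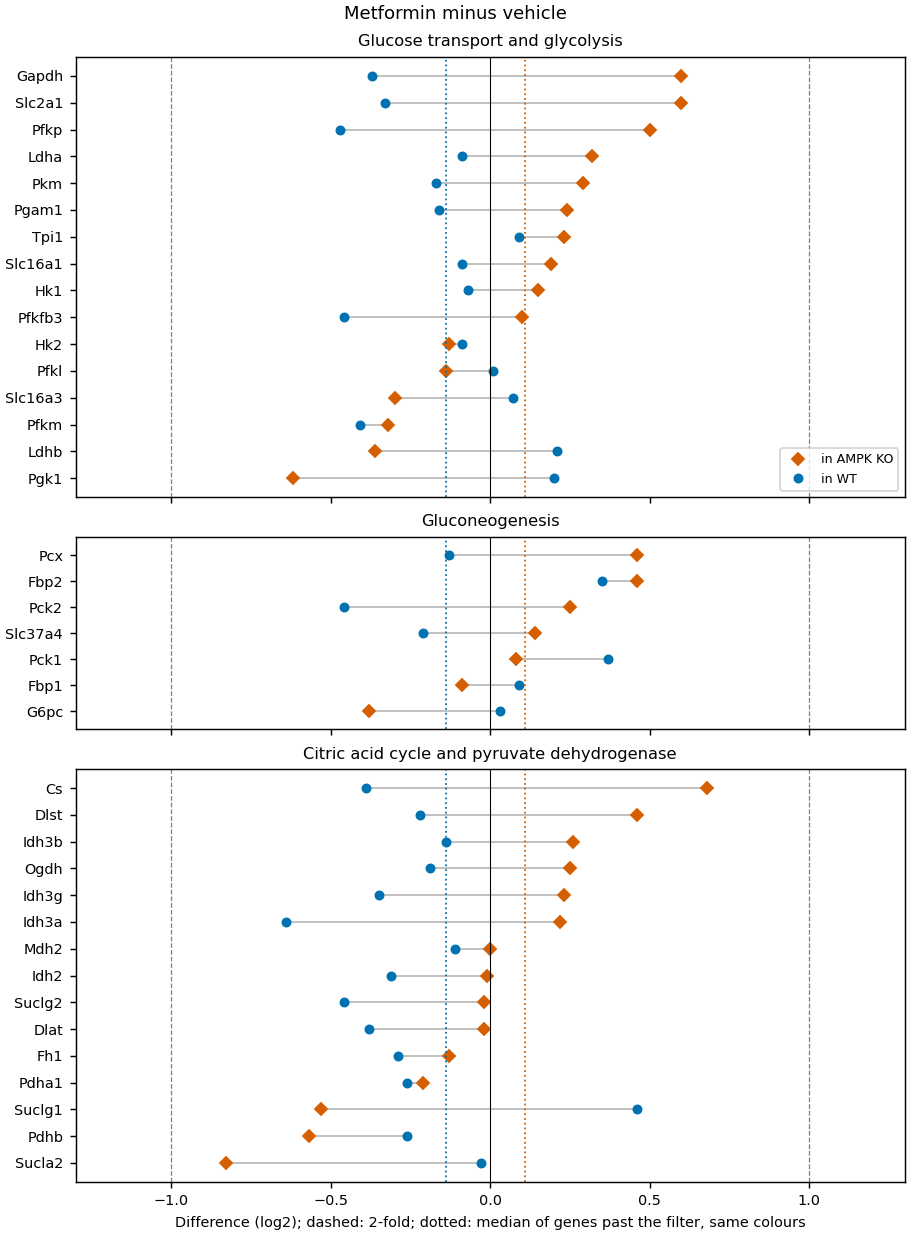
Differences of log2 values, metformin minus vehicle, for each member in AMPK KO (orange) and in WT (blue), with 1 array in each group. Dashed lines mark 2-fold, which no member reaches, and dotted lines the medians of genes past the filter (0.11 and -0.14). Cs, Gapdh, Slc2a1 and Pfkp lie to the right in KO and to the left in WT, while Suclg1, Pgk1 and Ldhb lie the other way round.

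The response in KO minus that in WT was 1.07 for Cs, 0.97 for Pfkp, 0.97 for Gapdh, 0.93 for Slc2a1 and 0.86 for Idh3a. It was -0.99 for Suclg1, -0.82 for Pgk1, -0.79 for Sucla2 and -0.58 for Ldhb. These differences of responses have no test, and all 4 arrays enter each of them. Responses of opposite sign that differed by at least 2-fold were found for 1 of 34 members, Cs, and for 14.5% of all genes past the filter.

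**Figure D4:**
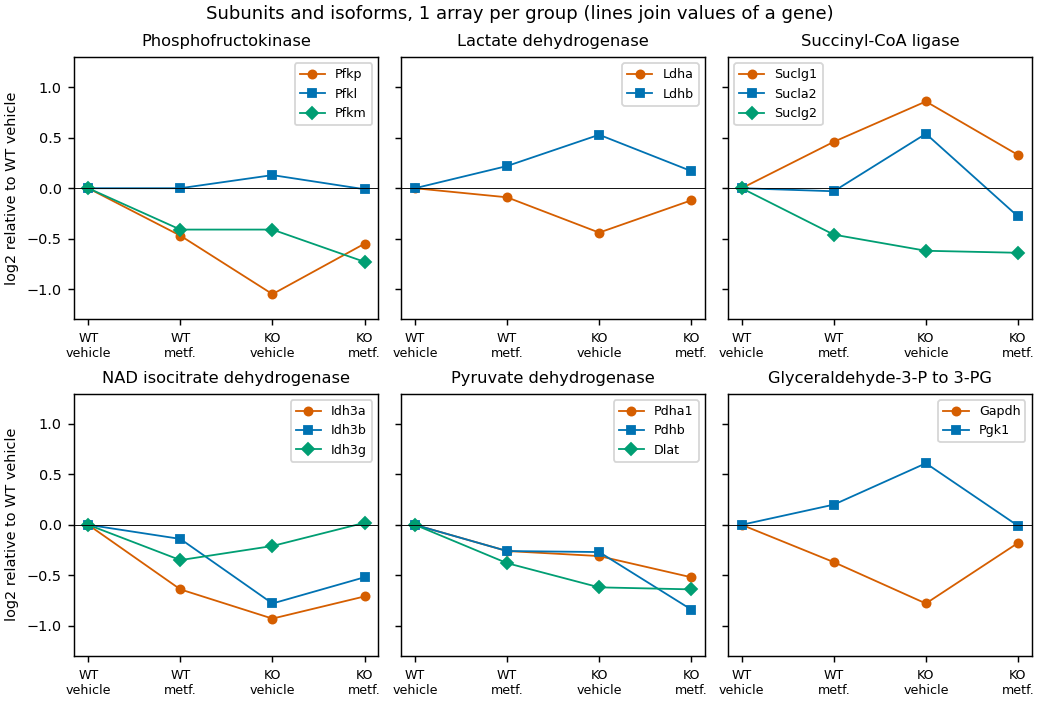
Members of 6 enzymes or enzyme pairs on the 4 arrays, each gene relative to its own value on the WT vehicle array (log2). Points are single arrays and lines only join the values of a gene. Suclg1 and Sucla2, Ldhb and Pgk1 are highest on the KO vehicle array, while Pfkp, Ldha, Idh3a, Idh3b and Gapdh are lowest there, and Pdhb is lowest on the KO metformin array.

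A fit over all 4 arrays with genotype and treatment as terms gives the only test that the design allows. It averages each effect over 2 arrays against 2 and keeps 1 residual degree of freedom. That residual also holds any difference between the metformin responses of the genotypes, such as the 1.07 of Cs. The fit therefore does not test the differences under vehicle alone. In limma, with Benjamini-Hochberg adjustment over 11090 genes, 0 of 34 members passed an adjusted p of 0.05 for genotype, where 0.0451% of all genes did (5 genes). For metformin 0 members passed as well, where 0.0% of all genes did. At an unadjusted p under 0.05 there were 374 genes for genotype and 32 for metformin, with 0 members in either. The member with the lowest unadjusted p for genotype was Idh3b, at -0.58 ± 0.30 (SE, 2 arrays against 2, limma adjusted p = 0.999), and it was lower in KO under both treatments. For metformin it was Pdhb (limma adjusted p = 1.0), lower with metformin in both genotypes.

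Other genes of these pathways, from fixed lists, were read for the steps around the members. Each count past 2-fold below stands beside the 8.12% of all genes at least 2-fold lower in KO under vehicle, and none is read as particular to its list. Of 13 further glycolysis and transport genes past the filter, 1 was at least 2-fold lower in KO under vehicle, the monocarboxylate transporter Slc16a7, with 11.28, 10.58, 10.02 and 10.29 and a difference of -1.26. It was highest on the WT vehicle array. Its ancillary protein Bsg had -0.85, and the pyruvate kinase of liver and red cells, Pklr, had 7.17, 6.93, 6.20 and 7.06 with -0.96. Of 21 genes around pyruvate entry and the cycle, 1 was at least 2-fold lower, the mitochondrial pyruvate carrier subunit Mpc1, with 10.50, 10.63, 9.05 and 9.98 and a difference of -1.45. Both KO arrays lay under both WT arrays for this probe set, but a further one with a mean of 5.70 gave -0.06. Under metformin Mpc1 had -0.65.

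Subunits of succinate dehydrogenase, the next step after succinyl-CoA ligase, were higher in KO under vehicle. Sdhb was at 0.60, Sdhc at 0.46, Sdhd at 0.40 and Sdha at 0.05. Between the genotypes under metformin they had 0.09, 0.26, -0.17 and -0.07 in that order. The kinases that switch off pyruvate dehydrogenase were split under vehicle, with Pdk4 at -0.99, Pdk3 at -0.72 and Pdk2 at -0.62 against Pdk1 at 0.56. Under metformin these kinases had 0.28, 0.07, 0.24 and -0.19 in that order. Of 13 genes around gluconeogenesis, 1 was at least 2-fold lower, the salt-inducible kinase Sik1 (8.92, 7.97, 7.88 and 8.62, difference -1.04), and the ubiquitous glucose-6-phosphatase G6pc3 had 7.87, 7.12, 6.91 and 7.60 with -0.97. Of 13 transcription factors past the filter, Epas1, a hypoxia-inducible factor, was 2.04-fold lower in KO under vehicle (-1.03) and 2.08-fold higher with metformin in KO (1.06). Myc was higher in KO under both treatments, by 0.91 and 0.86. None of the 6 pentose phosphate genes passed 2-fold in any comparison, and their vehicle differences ran from -0.55 for Rpe to 0.72 for Pgls, whose further probe set gave -0.11.

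Promoters of 37 of the 38 measured members were matched in RefSeq, out of 27025 genes, and searched on both strands for motifs of factors known to act on these pathways. The hypoxia response core ACGTG was in 17 of the 37, beside 21.8% of all genes, among them Slc2a1, Hk1, Hk2, Gapdh, Pgk1, Ldha and Pfkfb3. The E-box CACGTG, which contains that core, was in 7, beside 8.09%. The cAMP response motif TGACG was in 18, beside 23.0%, and the estrogen-related receptor motif AAGGTCA in 2, Tpi1 and Ogdh, beside 5.38%. The 27025 genes were not limited to those past the filter, as most members are, so their shares are not a matched background. Enrichment was not tested. A match is a description of these letters and not of binding. Members with the hypoxia core were found on both sides of 0 under vehicle, as with Gapdh and Pgk1.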

How the data were processed

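Biotinylated cDNA was made from total RNA of the corpus and measured on Affymetrix arrays, per the labels' protocols. The submitters' processing notes name Partek and RMA for the deposited log2 values, whose scale was read from the values. Their versions, settings and array annotation are not stated there. Groups came from the sample titles, and precision is limited by having 1 array apiece.

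Of 41345 probe sets, 23521 were paired with 1 gene, 1814 with several and 16010 were unnamed here. Symbols were updated by gene identifier (23328 found, GRCm38.p6). Of 22180 genes, 11090 had a mean of at least 5.03, the median of gene means. The size rules were 2-fold and 1.5-fold. limma 3.58.1 in R 4.3.3 fitted genotype and treatment over these genes. Tested on simulated data (200 of 11090 genes changed between genotypes), it found 26.6% of changes of 1 on the log2 scale. It found 99.35% of changes of 2 and 100% of changes of 3. False calls were on average 7.0, 18.9 and 17.9. Each run held 200 changed genes, so these counts do not tell how many of the 5 genes called here for genotype are false. Python 3.11.15, pandas 2.3.3 and statsmodels 0.14.6 (lowess, span 0.3) did the rest. All members could be named. Other pathway genes were named when past 2-fold, as extremes of a list, or after their values were seen (Bsg, Pklr, G6pc3, Myc and the genes of the succinate dehydrogenase and pyruvate dehydrogenase kinase families). Alternatives were other filters, cyclic loess, centring, averaging of probe sets, removal of the lowess trend on gene span among protein-coding genes, and trended or robust variances in limma. Members and lists were chosen with earlier results of these data known. Red blood cell markers were not analysed here.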

Additional observations from a re-analysis of the deposited data

Results flagged for a closer look

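Among the members and the fixed lists of pathway genes, 8 genes past the filter had metformin responses of opposite sign in the 2 genotypes that differed by at least 2-fold. With 1 array in each group the difference was not tested. The response in AMPK KO minus that in WT was 1.07 for Cs, the only member among them, with -0.39 in WT and 0.68 in KO. For the fructose transporter Slc2a5 it was 1.11, for the pyruvate kinase Pklr 1.10, for the glucose-6-phosphatase G6pc3 1.45 and for the CREB coactivator Crtc2 1.0. It was 1.70 for the kinase Sik1, which acts on Crtc2, 1.27 for the pyruvate dehydrogenase kinase Pdk4 and 1.37 for Epas1. All 8 were lower with metformin in WT and higher in KO. They are 8 of 100 genes (8.0%), beside 14.5% of the 11090 genes past the filter, of which 1220 of 1610 had that same direction. The KO vehicle array, on which 44.3% of all genes were lowest, enters each value.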

How the results depend on the processing

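With 1 array in each group no array can be left out, and no paired analysis was possible because the labels carry no replicate numbers. Counts of members past 2-fold were 0, 0, 2 and 0 for metformin in WT, metformin in KO, and KO against WT under vehicle and under metformin. With a 1.5-fold rule the first 3 were 1, 5 and 11, and after cyclic loess the vehicle count was 1 (Suclg1 in place of Cs and Pfkp). With the span trend removed among genes past the filter the count stayed 2, but with Gapdh in place of Pfkp. With that trend fitted over all protein-coding genes, an alternative chosen after seeing the data, the count was 0. Centring added Idh3a. The pathway medians for KO against WT under vehicle moved by more than 0.1 under several settings. After cyclic loess they were -0.06 (glycolysis), -0.15 (gluconeogenesis) and -0.28 (citric acid cycle), and with arrays centred on their medians -0.46, -0.16 and -0.68. With the trend on gene span removed over all protein-coding genes they were -0.13 (gluconeogenesis) and -0.38 (cycle). The median over all genes past the filter moved too, from -0.22 to -0.07 and -0.37 with the 2 scalings. In the KO response, cyclic loess gave 0.03 for glycolysis and -0.16 for the cycle. Gluconeogenesis, with 4 of 7 members past the filter, moved with the filter. At the 75th percentile it had 0.46 in the KO response, -0.47 for genotype under vehicle and -0.12 under metformin. Over the members past the main filter, an alternative chosen after seeing the data, it had -0.17 in the WT response, 0.36 in the KO response and -0.47 under vehicle. No other setting run moved a pathway median by over 0.1, and no setting of limma called a member.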
